A study of Mus musculus with 10 samples.

Results

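The proteasome genes are the 51 protein-coding mouse genes with symbols that start Psma, Psmb, Psmc, Psmd, Psme, Psmf or Psmg, of 21887 protein-coding genes in all. They were chosen by symbol alone, and no measured value entered the choice. The proteasome is the protease complex that degrades ubiquitin-tagged proteins. Its barrel-shaped 20S core has outer rings of alpha subunits (Psma genes) and inner rings of beta subunits (Psmb genes), and the 19S cap of ATPases (Psmc genes) and other subunits (most Psmd genes) recognises, unfolds and feeds in the substrate. Interferon replaces the constitutive catalytic subunits by inducible ones to form the immunoproteasome, which favours peptides for presentation by MHC class I. In muscle stem cells, the cells beside the muscle fibre that rebuild it after injury, proteasome activity is known to be needed for their maintenance.

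Open chromatin was mapped with ATAC-seq, an assay in which transposase inserts adapters where DNA is accessible. The muscle stem cells were sorted from C57BL/6 mice by the surface proteins α7-integrin and CD34. Cells of aged mice (20 to 25 months) and of young mice (8 to 20 weeks) were held for 2 h in medium with serum and bFGF and with prostaglandin E2 (PGE2), an inflammatory lipid mediator, or with 0.1% DMSO as vehicle. The labels describe 3 aged PGE2, 2 young PGE2, 3 aged vehicle and 2 young vehicle libraries. The values used here were 2 peak lists, one of aged and one of young cells, both after PGE2, so the age comparison was made after the same treatment and the vehicle groups were not analysed here. One list stands for each age and libraries have no values of their own, so differences between the ages have neither replicate error nor p-value, and binomial intervals cover counting error over regions only. The depth of each library is unknown. In these bulk samples fewer cells with an open site and a less open site in each cell cannot be told apart.

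The aged list held 117284 regions covering 71.6 Mb and the young list 131656 regions covering 92.2 Mb of the GRCm38 genome. Fold means the authors' deposited enrichment of a region's strongest summit over background. It is read here only within its own list, as is the percentile, which is the rank of a region among all regions of its list by the caller's significance. The lists differ in length, so a percentile that differs between them is no evidence of a change, and a similar one is no evidence against it. The sorted cell type was checked on its markers. A gene-end region is one that reaches within 1 kb of either end of a gene. All 8 muscle stem cell markers, Pax7 and Myf5 among them, had such a region at both ages. Of 7 immune markers, 0 had one in the aged list and 1 had one in the young list, namely Cd52 at 3.26-fold, while Ptprc, Cd74, Laptm5, Tyrobp, Itgam and Cd3e had none in either. Of 4 endothelial markers, 1 had such a region at both ages and 1 in the young list only. All 4 fibroblast markers and all 3 smooth muscle markers had one in both lists, with medians at percentiles 59.2 and 79.8 of the aged list and 48.8 and 85.1 of the young list. Of 3 glia markers, 2 had one in both lists and 1 in the young list only. The part of other cell types in the values below was not tested.

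Almost every proteasome gene was open at an end in aged and in young cells. Of the 51 genes, 48 (94.1%, 95% exact binomial interval 83.8 to 98.8) had a gene-end region in the aged and in the young list, 0 were open in the aged list alone, 0 in the young list alone and 3 in neither of them. Over all protein-coding genes, 63.3% had one in both lists, 0.48% in the aged list alone, 3.2% in the young list alone and 33.0% in neither of them. The 3 genes with none were Psma8, Psme2b and Psmf1. Psma8 encodes the germline form of an alpha subunit and had 0 regions at its ends or inside its span in either list. Psme2b (chromosome 11, 48945345 to 48946410) is a copy of Psme2, so reads of these genes may be hard to tell apart, and it also had 0 regions. Psmf1, which encodes the proteasome inhibitor PI31, was open at a start inside its span and is described below.

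The gene-end regions of proteasome genes were seldom weak, but they were not stronger than other genes' at the top. Their strongest regions had a median percentile of 93.7 in the aged list (n = 48 genes) and 94.5 in the young list (n = 48). Over all protein-coding genes with such a region the medians were 90.8 (n = 13960) and 92.7 (n = 14556). The lower quartile of the proteasome genes was 89.0 in the aged list and 90.9 in the young list, against 79.2 and 82.4 over all genes. The upper quartile was 95.7 and 96.9, against 96.3 and 97.1 over all genes. In the aged list 33 of 48 regions (68.8%) were in the top 10% of the list, where the background over all genes was 52.8%. In the young list 42 of 48 (87.5%) were, where the background was 60.2%. At or above the 80th percentile lay 44 of 48 (91.7%) in the aged list and 44 of 48 in the young list, with backgrounds of 73.9% and 77.6%. The folds ran from 4.52 to 98.7 (median 37.6) in the aged list and from 2.99 to 158 (median 53.6) in the young list. Over all protein-coding genes with such a region the median folds were 28.9 and 44.1. Higher folds in the young list are therefore not particular to proteasome genes. The aged and young folds printed side by side below cannot show whether a gene changed with age or stayed the same.

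**Figure D1:**
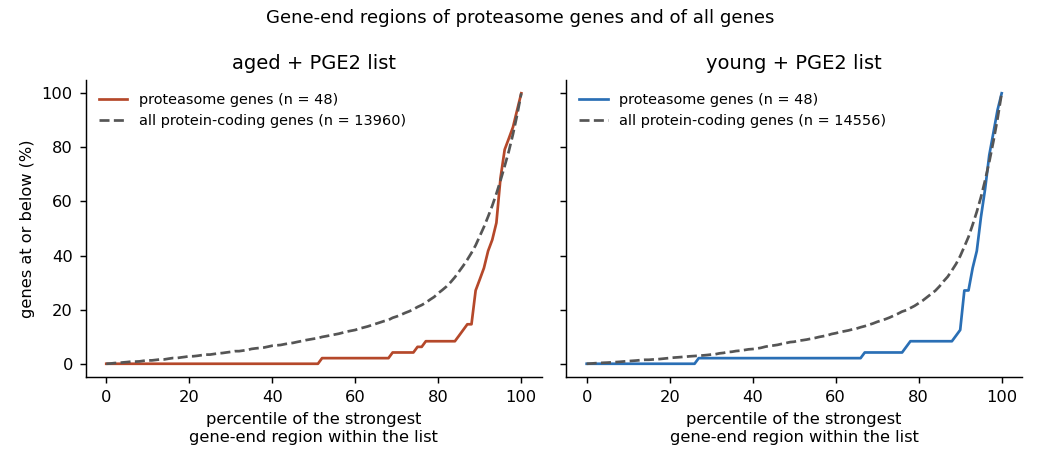
Cumulative share of genes (y axis, %) by the percentile of the strongest gene-end region within its own list (x axis), for proteasome genes (solid line, n = 48 in each list) and all protein-coding genes with such a region (dashed line), with the aged PGE2 list on the left and the young PGE2 list on the right. At the 90th percentile 31.2% of proteasome genes and 47.2% of all genes had been passed in the aged list, and 12.5% and 39.8% in the young list, while the curves meet near the top.

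**Figure D2:**
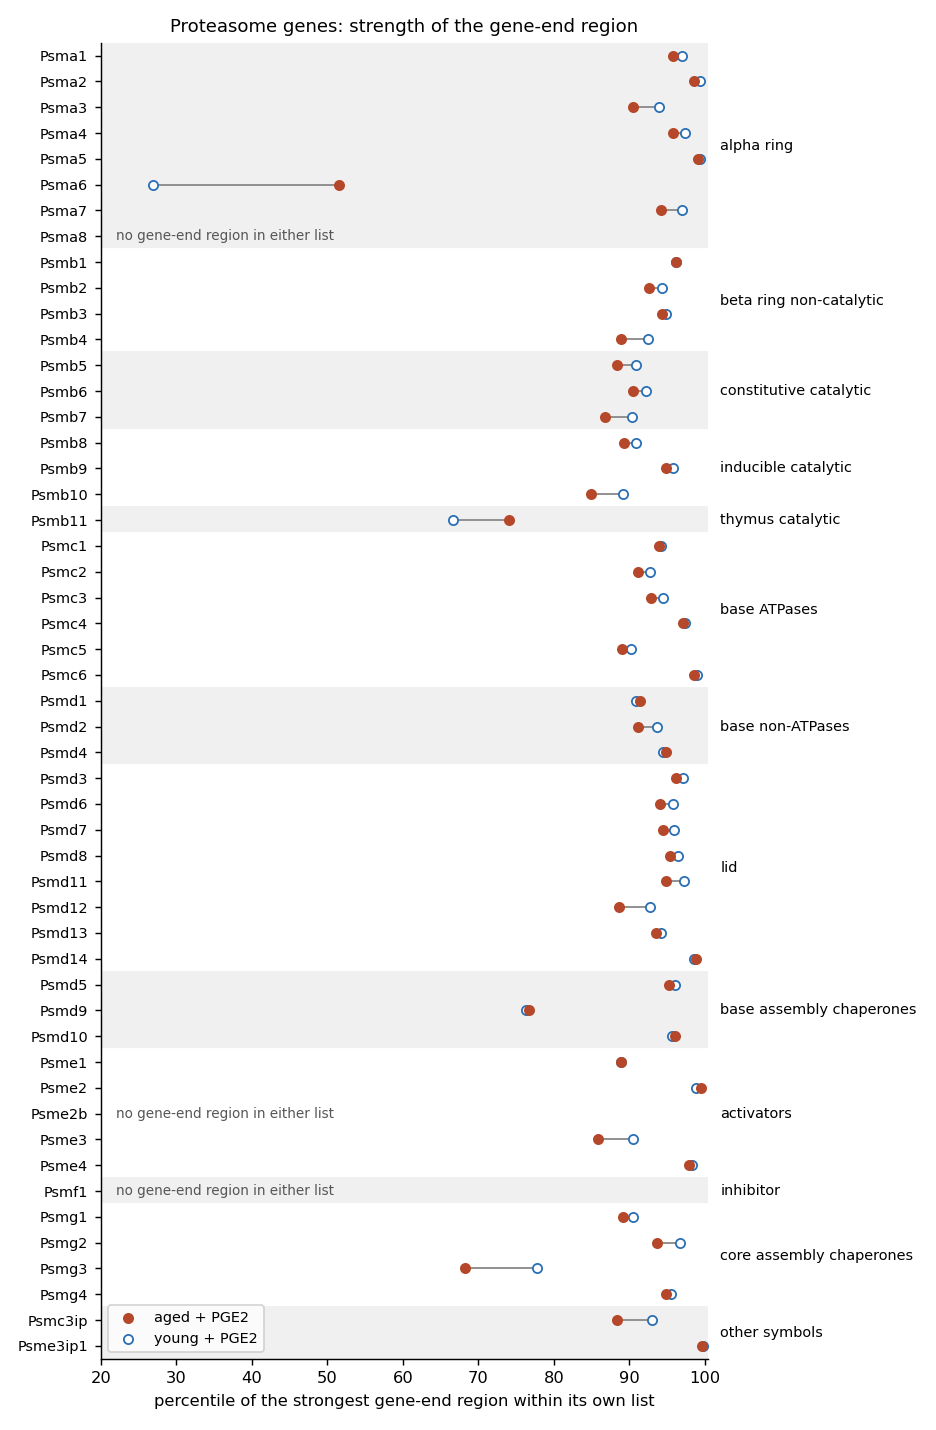
Percentile of the strongest gene-end region within its own list (x axis, from 20) for each of the 51 proteasome genes, grouped by role, with filled circles for the aged PGE2 list, open circles for the young PGE2 list and a line joining them. Psma6, Psmb11, Psmd9 and Psmg3 lie below 80 in both lists, Psma8, Psme2b and Psmf1 have no gene-end region, and all other genes lie between 84.9 and 99.7.

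The inducible catalytic subunits of the immunoproteasome were open in both lists, Psmb9 at a higher percentile than each constitutive catalytic gene, Psmb10 at a lower one and Psmb8 between them. Of the inducible subunits, Psmb8 (chromosome 17, 34198195 to 34201454; takes the place of Psmb5) had a strongest gene-end region of 25.5-fold at percentile 89.3 in aged cells, against 36.0-fold at percentile 90.8 in young cells. Psmb9 (chromosome 17, 34182030 to 34187330; takes the place of Psmb6) had 42.0-fold at percentile 94.8 in aged cells, against 62.9-fold at percentile 95.7 in young cells. Psmb10 (chromosome 8, 105935728 to 105938392; takes the place of Psmb7) had 18.4-fold at percentile 84.9 in aged cells, against 30.7-fold at percentile 89.1 in young cells. All 3 inducible genes thus had a region at percentile 84.9 or above at each age, with Psmb9 the highest of them in both lists.

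Among the constitutive catalytic subunits, Psmb5 (chromosome 14, 54614120 to 54617995; chymotrypsin-like activity) had 23.6-fold at percentile 88.3 in aged cells, against 35.9-fold at percentile 90.8 in young cells. Psmb6 (chromosome 11, 70525324 to 70527858; caspase-like activity) had 28.3-fold at percentile 90.5 in aged cells, against 41.5-fold at percentile 92.2 in young cells. Psmb7 (chromosome 2, 38588046 to 38643952; trypsin-like activity) had 20.9-fold at percentile 86.7 in aged cells, against 34.3-fold at percentile 90.3 in young cells. The median percentile of the 3 inducible genes was 89.3 in the aged list, against 88.3 for the 3 constitutive genes, and it was 90.8 in the young list for the inducible as for the constitutive genes. The ranges of the inducible and constitutive genes overlapped in each list (84.9 to 94.8 against 86.7 to 90.5 in the aged list, 89.1 to 95.7 against 90.3 to 92.2 in the young list). With 3 genes on each side and 1 list per age, no test was made.

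The promoter windows of the catalytic subunits follow, from 250 bases before to 50 after the annotated start (RefSeq, GRCm38.p6, each 5′ to 3′ on the gene's strand). The strongest summits of Psmb5, Psmb6 and Psmb9, given next, lie within these windows. Those of Psmb8 and Psmb10 lie outside them, so the letters do not describe the main openings of these genes. Capitals mark TGACNNNGC, the letters of the antioxidant response element through which Nfe2l1 raises proteasome genes when the proteasome is impaired, and TTCNNNGAA, those of STAT sites, on either strand. The windows are chr17:34197945-34198244 (+) for Psmb8, chr17:34187281-34187580 (−) for Psmb9, chr8:105938343-105938642 (−) for Psmb10, chr14:54617946-54618245 (−) for Psmb5 and chr11:70525107-70525406 (+) for Psmb6.
Psmb8: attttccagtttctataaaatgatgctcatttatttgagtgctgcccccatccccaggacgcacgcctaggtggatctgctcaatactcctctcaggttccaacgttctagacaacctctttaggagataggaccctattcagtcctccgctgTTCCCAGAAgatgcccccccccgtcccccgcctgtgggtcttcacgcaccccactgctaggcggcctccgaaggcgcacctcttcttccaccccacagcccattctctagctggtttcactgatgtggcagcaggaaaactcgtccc
Psmb9: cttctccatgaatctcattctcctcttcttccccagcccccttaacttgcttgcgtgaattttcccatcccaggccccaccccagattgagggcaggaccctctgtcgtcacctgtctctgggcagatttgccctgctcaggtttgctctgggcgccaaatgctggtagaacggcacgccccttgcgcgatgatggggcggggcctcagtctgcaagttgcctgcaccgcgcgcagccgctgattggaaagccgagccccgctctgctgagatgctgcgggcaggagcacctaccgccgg
Psmb10: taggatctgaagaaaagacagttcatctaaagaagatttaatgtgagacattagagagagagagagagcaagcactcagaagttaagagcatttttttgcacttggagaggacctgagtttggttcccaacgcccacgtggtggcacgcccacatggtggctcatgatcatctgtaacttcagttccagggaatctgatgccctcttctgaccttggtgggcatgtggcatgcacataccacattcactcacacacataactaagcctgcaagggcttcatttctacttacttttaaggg
Psmb5: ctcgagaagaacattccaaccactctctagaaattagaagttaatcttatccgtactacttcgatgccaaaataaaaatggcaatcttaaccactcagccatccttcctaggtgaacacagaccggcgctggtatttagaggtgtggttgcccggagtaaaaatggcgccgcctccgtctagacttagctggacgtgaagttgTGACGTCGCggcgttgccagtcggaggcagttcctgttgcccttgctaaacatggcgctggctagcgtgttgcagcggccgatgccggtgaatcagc
Psmb6: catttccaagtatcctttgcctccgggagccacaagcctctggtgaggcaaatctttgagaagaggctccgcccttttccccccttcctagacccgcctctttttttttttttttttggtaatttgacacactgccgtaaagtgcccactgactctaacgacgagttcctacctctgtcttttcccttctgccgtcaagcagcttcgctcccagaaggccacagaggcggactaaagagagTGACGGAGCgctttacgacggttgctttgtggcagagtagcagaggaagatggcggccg
Psmb5 and Psmb6 each held 1 match to TGACNNNGC, beginning 47 and 9 bases before the start, and Psmb8 held 1 match to TTCNNNGAA, beginning 97 bases before it. In Psmb9 and Psmb10 these letters were not in the window. TGACNNNGC is in 12.8% (6 of 47) of the promoter windows of proteasome genes and in 13.0% of the 21263 windows of all protein-coding genes. TTCNNNGAA is in 6.38% of those of proteasome genes and 7.69% of all.

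Where the openings of the catalytic genes lay relative to the start differed from gene to gene and little between ages. The summit of Psmb5 lay at the start itself in aged cells and 8 bp upstream in young cells. That of Psmb6 lay 46 bp upstream in aged cells and 43 bp upstream in young cells. The strongest summit of Psmb9 lay 111 bp upstream in aged cells and 101 bp upstream in young cells, in the stretch between Psmb9 and Tap1. Tap1, which encodes a subunit of the transporter that carries peptides into the endoplasmic reticulum, starts 226 bp upstream of Psmb9 on the opposite strand. A further summit, 411 bp upstream in aged cells (25.6-fold) and 406 bp upstream in young cells (48.0-fold), lay past the start of Tap1. The opening therefore cannot be assigned to Psmb9 or Tap1 alone.

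Psmb8 and Psmb10 had their strongest summits away from the start. That of Psmb8 lay 513 bp upstream in aged cells and 525 bp upstream in young cells, between the end of Tap1 and Psmb8. A weaker summit lay 150 bp downstream of the Psmb8 start in aged cells (15.0-fold) and 163 bp downstream in young cells (12.9-fold). In the aged list these summits fell into separate regions of 574 bp and 879 bp, and in the young list into a single region of 1596 bp. In Psmb10 the strongest summit lay 1212 bp downstream of the start in aged cells and 1244 bp downstream in young cells, inside this short gene. Summits at the start of Psmb10 were weaker, at 33 bp upstream and 7.21-fold in aged cells and 38 bp upstream and 14.5-fold in young cells. The region at Psmb10 also reached within 1 kb of an end of Lcat, and that at Psmb8 within 1 kb of an end of Tap1.

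**Figure D3:**
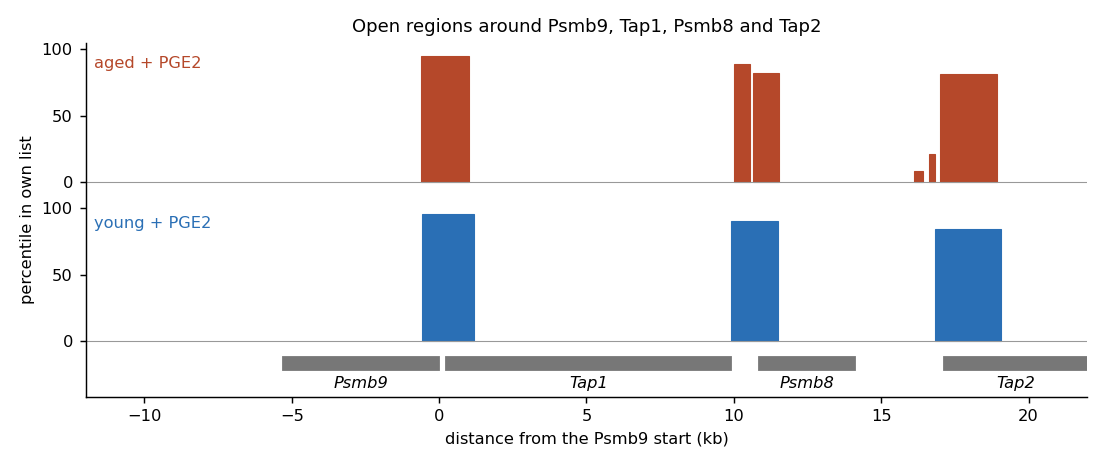
Open regions over 34 kb around the start of Psmb9, with the distance from that start in kb on the x axis and the percentile of each region within its own list on the y axis, aged PGE2 above young PGE2, and gene spans as grey bars. The opening between Psmb9 and Tap1 stands at 94.8 in the aged list and 95.7 in the young list, and the opening at Psmb8 is split into regions at 89.3 and 81.9 in the aged list where the young list has a single region at 90.8.

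Genes that work with the immunoproteasome were open as well. Of 10 genes of antigen processing and its inducers, 9 were open at an end in both lists and 1, Ciita, the master regulator of MHC class II, was open in neither. B2m, the light chain of MHC class I, had 68.3-fold in aged cells, against 127-fold in young cells. Tap2, the partner of Tap1, had 14.4-fold in aged cells, against 21.2-fold in young cells. The interferon-response factor gene Irf1 stood at percentile 94.6 in the aged list and at 95.5 in the young list. Of the activator genes that interferon induces, Psme1 (chromosome 14, 55578494 to 55581527; PA28 alpha) had 24.7-fold at percentile 88.9 in aged cells, against 30.2-fold at percentile 88.9 in young cells, with the summit 53 bp upstream of the start in each. Psme2 (chromosome 14, 55587440 to 55591101; PA28 beta) had 94.8-fold at percentile 99.5 in aged cells, against 110-fold at percentile 98.8 in young cells. Psme2 starts 641 bp from the divergent gene Rnf31, and its region covers both starts. The interferon-stimulated response element, searched as TTTC and TTTC with any 2 bases between, lay in 5 of 47 promoter windows of proteasome genes (10.6%) and in 3.35% of all windows. The 5 were those of Psme1, Psmb3, Psmd4, Psmd9 and Psmg4. The letters were in 0 of 3 windows of the inducible catalytic genes and not in those of Psme2. The windows of Psmb8 and Psmb10 do not reach the strongest summits of these genes.

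Psmb11, the catalytic subunit of the thymus form, was the weakest of the catalytic genes. It lies on chromosome 14 (54625310 to 54629556) next to Psmb5. Its gene-end region had 9.80-fold at percentile 74.1 in aged cells, against 8.36-fold at percentile 66.7 in young cells, with summits 250 bp and 223 bp upstream of the start. It also had a region of 232 bp at 1.92-fold, 713 bp upstream of the start, which was found in the aged list only.

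The rings of the core were open at every gene but Psma8. Of the 8 alpha ring genes 7 were open at an end in both lists, with medians at percentile 95.7 in aged cells and percentile 97.0 in young cells. Psma5 (83.7-fold in aged cells, against 129-fold in young cells) and Psma2 (70.4-fold, against 128-fold) were the strongest, at percentiles 99.1 and 98.5 in the aged list and both at percentile 99.3 in the young list. Psma1, Psma4 and Psma7 lay between 39.2-fold and 47.1-fold in the aged list and between 74.6-fold and 80.9-fold in the young list. The non-catalytic beta ring genes Psmb1, Psmb2, Psmb3 and Psmb4 lay between 24.8-fold and 48.9-fold in the aged list and between 42.5-fold and 66.8-fold in the young list, with median percentiles of 93.4 and 94.6. The region counted for Psmb1 lies outside its span and also reaches within 1 kb of an end of the neighbouring gene Tbp. A further region covered the end of the Psmb1 span itself, at 34.7-fold and percentile 92.9 in aged cells, against 59.2-fold and percentile 95.2 in young cells.

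Psma6, Psma3 and Psmf1 were open at a start that lies inside the annotated span, which the windows at the span ends did not cover. Psma6 (chromosome 12, 55384222 to 55418459; alpha 1 subunit) had the weakest gene-end region of the 48 genes, at 4.52-fold and percentile 51.6 in aged cells, against 2.99-fold and percentile 26.9 in young cells. At its other annotated start, 14603 bp inside the span, it had a region of 57.2-fold at percentile 97.3 in aged cells, against 106-fold at percentile 98.7 in young cells. Psma3 (chromosome 12, 70969283 to 70995877) had 27.9-fold at the span end and 68.9-fold at its start 5340 bp inside in aged cells, against 49.8-fold and 120-fold in young cells. Psmf1 (chromosome 2, 151716062 to 151744199) had 9.42-fold at percentile 73.3 in aged cells, against 18.3-fold at percentile 82.5 in young cells, at its start 2889 bp inside the span. The summit lay 17 bp upstream of that start in aged cells and 27 bp upstream in young cells. For all 3 genes the main opening was thus present at each age. Psmc2 had a further start 1472 bp inside its span, with 26.1-fold in aged cells, against 49.5-fold in young cells, and the inner start of Psme3ip1 had no region in either list.

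The windows of both Psma6 starts and of the Psmf1 start follow (RefSeq, GRCm38.p6, 5′ to 3′). Capitals mark CCGGAA, the letters of a site for ETS transcription factors, on either strand. The windows are chr12:55398575-55398874 (+) for the inner start of Psma6, chr12:55383972-55384271 (+) for its outer start and chr2:151741261-151741560 (−) for Psmf1.
Psma6 inner start: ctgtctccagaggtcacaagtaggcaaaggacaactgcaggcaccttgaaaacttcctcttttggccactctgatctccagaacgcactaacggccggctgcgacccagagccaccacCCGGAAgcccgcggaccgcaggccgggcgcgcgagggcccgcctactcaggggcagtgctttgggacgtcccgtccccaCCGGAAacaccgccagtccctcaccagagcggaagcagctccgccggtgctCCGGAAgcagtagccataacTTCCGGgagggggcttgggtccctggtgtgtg
Psma6 outer start: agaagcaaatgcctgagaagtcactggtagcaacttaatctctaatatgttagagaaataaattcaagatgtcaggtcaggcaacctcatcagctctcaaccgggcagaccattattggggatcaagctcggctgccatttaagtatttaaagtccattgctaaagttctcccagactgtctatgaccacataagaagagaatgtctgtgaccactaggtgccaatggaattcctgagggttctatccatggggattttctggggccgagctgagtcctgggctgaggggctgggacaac
Psmf1: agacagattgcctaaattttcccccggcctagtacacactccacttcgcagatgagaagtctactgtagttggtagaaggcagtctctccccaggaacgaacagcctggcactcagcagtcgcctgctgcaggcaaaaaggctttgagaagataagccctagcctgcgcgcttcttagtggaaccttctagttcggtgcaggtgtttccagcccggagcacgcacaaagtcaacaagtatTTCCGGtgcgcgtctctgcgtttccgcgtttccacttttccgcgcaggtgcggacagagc
The inner start of Psma6 held 4 matches and 65.0% G and C, and the outer start held 0 matches and 46.7% G and C. Psmf1 held 1 match. The window of the inner Psma3 start, not printed here, held 0 matches and 49.3% G and C. Its region stood at percentile 98.4 in the aged list and 99.1 in the young list, above that of the inner Psma6 start. Open inner starts thus occurred with and without these letters. Of the motifs searched, CCGGAA had the widest gap in share between proteasome genes and all genes. It was in 23 of 47 windows of proteasome genes (48.9%), in 25.4% of the 14192 windows of genes with an open start in both lists and in 18.7% of all windows. It lay in the windows of 4 of 5 base ATPase genes and 4 of 6 lid genes, and in 0 of 2 constitutive and 0 of 3 inducible catalytic genes. Start regions of the 22 genes with a match had median percentiles of 93.7 in the aged list and 94.2 in the young list, against 94.5 and 95.6 for the 20 genes without a match and with a start region.

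The other searched motifs had smaller differences or few matches. GC boxes (GGGCGG) lay in 53.2% of windows of proteasome genes, 62.4% of open windows and 46.2% of all. CCAAT lay in 34.0%, 37.2% and 38.2%, and a loose form of NF-κB sites, GGG and CC with any 5 bases between, in 57.4%, 67.3% and 57.0%. YY1 letters (AANATGGC) lay in 12.8%, 7.53% and 6.37%, nuclear respiratory factor letters (GCGC and GCGC with any 2 bases between) in 14.9%, 12.4% and 8.57%, and Zfp143 letters (ACTACA and TCCC with any 2 bases between) in 4.26%, 3.76% and 2.54%. The cAMP response element TGACGTCA lay in 0 of 47 windows, against 2.98% of open windows and 2.23% of all. Heat shock letters (GAANNTTC) lay in 6.38%, 5.73% and 7.21%, and TATAAA in 8.51%, 7.26% and 12.6%. Both strands were searched, matches may overlap, and a match is a run of letters and not a bound site.

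All genes of the 19S cap were open at an end in both lists. The 6 ATPase genes, which form the ring that unfolds the substrate, had medians at percentile 93.4 in aged cells and percentile 94.3 in young cells. Psmc6 was the strongest, at 70.9-fold in aged cells, against 112-fold in young cells, followed by Psmc4 at 55.2-fold and percentile 97.1 in aged cells, against percentile 97.3 in young cells. Psmc1 had 38.2-fold in aged cells, against 51.7-fold in young cells, and Psmc3 had 34.7-fold, against 53.3-fold. Psmc2 had 29.7-fold in aged cells, against 44.1-fold in young cells, and Psmc5 had 24.9-fold, against 34.0-fold. The order of the 6 genes by fold was the same in both lists except that Psmc1 and Psmc3 changed places. The 8 lid genes had medians at percentile 94.6 in aged cells and percentile 96.1 in young cells. Psmd14, the deubiquitinase that removes the ubiquitin chain, was the strongest of them at 75.8-fold in aged cells, against 104-fold in young cells. The other 7 lid genes lay between 24.2-fold and 49.6-fold in the aged list and between 43.9-fold and 78.9-fold in the young list, with Psmd12 the weakest in both. The scaffold gene Psmd1, its partner Psmd2 and the ubiquitin receptor gene Psmd4 had between 29.7-fold and 42.0-fold in the aged list and between 36.4-fold and 53.9-fold in the young list.

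The remaining activators and the assembly factors ranged from among the strongest to among the weakest of the proteasome genes. Psme4 (PA200, a nuclear activator) had 63.2-fold at percentile 97.9 in aged cells, against 96.5-fold at percentile 98.3 in young cells. Psme3 (PA28 gamma, the activator not induced by interferon) had 19.6-fold at percentile 85.8 in aged cells, against 35.1-fold at percentile 90.5 in young cells. Of the core assembly chaperones, Psmg4 had 42.1-fold in aged cells, against 61.1-fold in young cells, and Psmg2 had 36.9-fold, against 71.9-fold. Psmg1 had 25.2-fold, against 34.6-fold. Psmg3 was the weakest of them, at 7.59-fold and percentile 68.2 in aged cells, against 13.9-fold and percentile 77.8 in young cells. Of the base assembly chaperones, Psmd9 was weak at 11.1-fold and percentile 76.7 in aged cells, against 12.9-fold and percentile 76.3 in young cells, while Psmd5 (43.6-fold in aged cells, against 65.5-fold in young cells) and Psmd10 (48.0-fold, against 61.8-fold) were above the 95th percentile in both lists.

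The rule on symbols also took Psmc3ip, a meiotic recombination factor, and Psme3ip1, a partner of PA28 gamma, which are no proteasome subunits. Psmc3ip had 23.7-fold in aged cells, against 45.5-fold in young cells. Psme3ip1 had the strongest region of all, at 98.7-fold and percentile 99.6 in aged cells, against 158-fold and percentile 99.7 in young cells, and its start lies 215 bp from the divergent gene Rspry1. Among proteasome-associated genes with other symbols, 9 of the 10 listed were found by symbol. Of these, Ecpas was open in neither list. The other 8 (88.9%, interval 51.8 to 99.7) were open at an end in both lists, against 63.3% over all protein-coding genes. They included Adrm1, a ubiquitin receptor of the cap (70.7-fold in aged cells, against 87.9-fold in young cells), and Pomp, the core maturation factor (35.8-fold, against 52.5-fold). All 6 regulators of proteasome genes were open at an end at both ages (interval from 54.1%). Both intervals include the 63.3% over all protein-coding genes, so these counts do not set the genes apart. Nfe2l1 had 82.5-fold in aged cells, against 111-fold in young cells. The protease gene Ddi2, which activates Nfe2l1, had 33.5-fold, against 39.7-fold.

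Openings sat close to the start, and their summits were near each other in aged and young cells. RefSeq starts were at hand for 43 of the 51 genes, all but Psma8, Psmb1, Psmb2, Psmb7, Psmc3, Psmd3, Psmd7 and Psmg2. Of these 43, 42 had a region within 1 kb of a start in both lists, where the background over 17492 genes was 63.6% in the aged list and 65.7% in the young list. In the aged list 31 of the 42 summits (73.8%) lay within 100 bp of the start, against 55.6% over all genes with a start region. In the young list 31 of 42 did, against 56.4%. The median distance was 48 bp in each list, against 83 bp and 80 bp over all genes. Between the ages the strongest summit of a gene end differed by a median of 8 bp (n = 48), and 40 of 48 (83.3%) were within 25 bp, against a median of 11 bp and 76.3% over 13855 genes. Psmd12, a lid gene, had the largest displacement, 309 bp, with its strongest summit 106 bp upstream of the start in aged cells and 203 bp downstream in young cells.

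**Figure D4:**
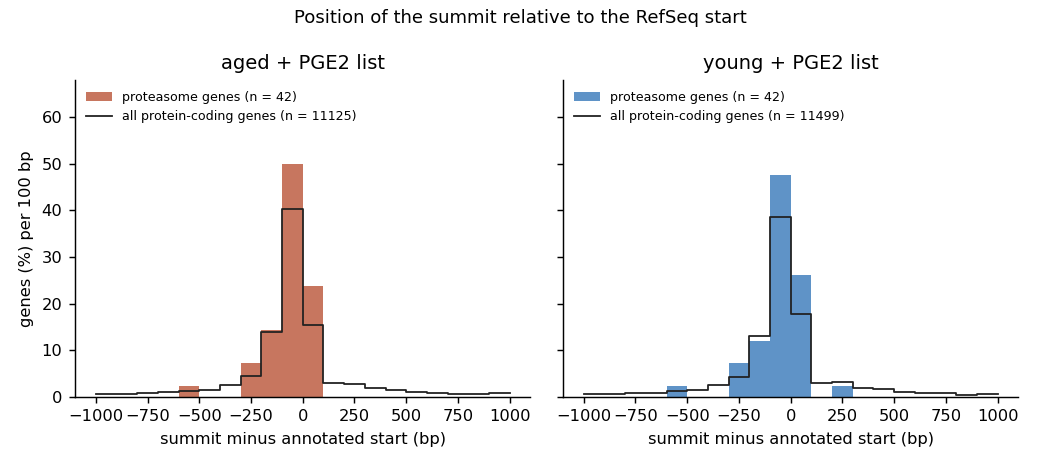
Share of genes (y axis, % per 100 bp) by the position of the strongest start region's summit relative to the RefSeq start (x axis, bp, negative upstream), with bars for proteasome genes (n = 42 in each list) and a line for all protein-coding genes with a start region, aged PGE2 on the left and young PGE2 on the right. The 100 bp before the start hold 21 of 42 proteasome genes in the aged list and 20 of 42 in the young list, and 1 gene, Psmb10, lies outside the range drawn in each list.

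Several of these starts were shared with a neighbour. Of the 43 genes, 8 (18.6%) had the start of another protein-coding gene on the opposite strand within 1 kb upstream, against 8.66% of all genes with a RefSeq start. The pairs were Psma7 with Ss18l1 (19 bp), Psmd13 with Sirt3 (85 bp), Psmc5 with Ftsj3 (101 bp), Psmd10 with Atg4a (196 bp), Psma2 with Mrpl32 (205 bp), Psme3ip1 with Rspry1 (215 bp), Psmb9 with Tap1 (226 bp) and Psme2 with Rnf31 (641 bp). At these genes the opening cannot be assigned to the proteasome gene alone. The same limit holds beyond these pairs. In each list 18 of the 48 strongest gene-end regions reached within 1 kb of an end of another gene. Psmd10, paired with Atg4a above by its start, is not among the 18, so this count of span ends misses some shared openings. Psmb3 with Pcgf2, Psmc2 with Dnajc2 and Psmg1 with Brwd1 are examples. The share over all genes is not given here.

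At proteasome genes the lists differed mainly in weak regions inside the spans, where 24 of the 29 young-only regions lay. Most young-only regions over all protein-coding genes also lay inside spans (21114 of 23632), so this place is no trait of proteasome genes. At the ends and inside the spans of the 51 genes the aged list held 87 regions and the young list 107. Of the 87 aged regions 86 (98.9%, interval from 93.8) were overlapped by a young region, and of the 107 young regions 78 (72.9%, 63.4 to 81.0) by an aged region. Over all protein-coding genes the shares were 90.6% and 71.3%, so the share of young regions without an overlap, 27.1% at proteasome genes, was near the 28.7% over all genes. Regions without an overlap in the other list thus numbered 1 in the aged list, at Psmb11, and 29 in the young list. At gene ends 1 of 62 aged regions (1.61%) and 5 of 61 young regions (8.2%) had no overlap, where the background over all genes was 3.82% and 14.2%. Inside the spans 0 of 25 aged regions had no overlap, which allows a share of up to 12.0%, where the background was 11.1%. Inside the spans 24 of 46 young regions (52.2%, 36.9 to 67.1) had no overlap, where the background was 32.6%. The interval treats regions as independent, but many of the 24 shared a gene. Psme4 held 5 of them, Psmb7 4 and Psme3ip1, which is no subunit, 3. The interval is therefore too narrow to set the share apart from the background. The young list is the longer one across the genome. With both lists reduced to their 58642 strongest regions, 91.4% of the young regions at proteasome genes were overlapped by an aged region, in place of 72.9%. Without merging of rows the share was 87.6%. Shares over all genes under these settings are not given here, so these shifts cannot be read as particular to proteasome genes.

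The young-only regions were small. They had folds between 1.80 and 6.21, and those inside spans had a median of 2.95-fold and a median width of 239.5 bp. They fell in 17 of the 51 genes, while 33 genes had no region of one age only. The same counts over all protein-coding genes are not given here, so these are no trait of proteasome genes. Psme4 had 5, Psmb7 had 4 and Psme3ip1 had 3 young-only regions, and Psmd1, Psmd2 and Psmd14 had 2 each. The strongest lay inside Psmb7 on chromosome 2 (38621173 to 38621944), at 6.21-fold and percentile 58.1 of the young list. Among the catalytic genes, Psmb7, which has a long span, held 4 and Psmb6 held 1. The inducible genes had 3 young regions in all, each at a gene end and each overlapped in the aged list, which is too few to set against a background of 14.2%.

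**Figure D5:**
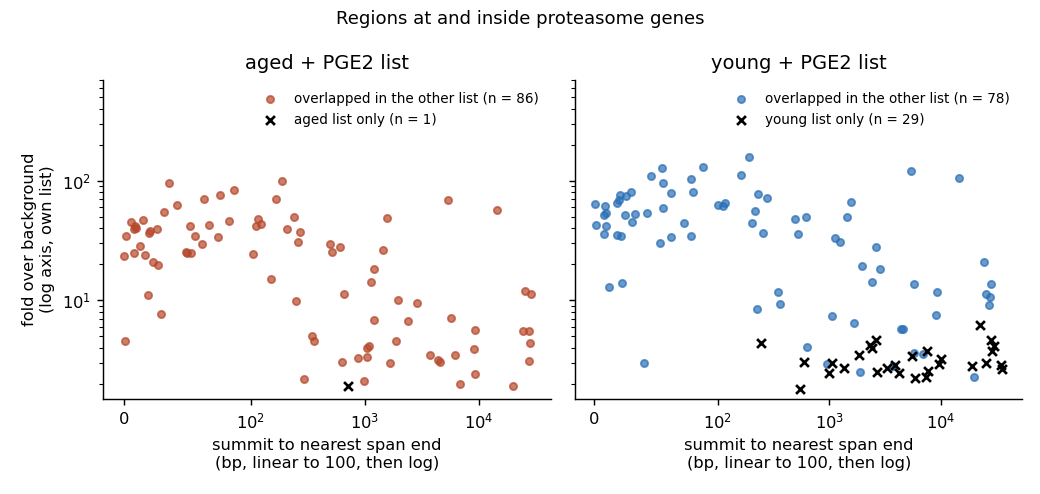
Each region at or inside a proteasome gene by the distance of its summit from the nearest end of the gene span (x axis, bp, linear to 100 and then logarithmic) and its fold over background within its own list (y axis, logarithmic), aged PGE2 on the left and young PGE2 on the right, with circles for regions overlapped in the other list and crosses for those without an overlap. The 29 crosses of the young list lie between 1.80-fold and 6.21-fold, and the single cross of the aged list at 1.92-fold.

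The regions at gene ends were narrower in the aged list, as they were genome-wide. Of the 48 genes, 43 (89.6%) had a narrower strongest gene-end region in the aged list, 4 a wider one and Psme1 one of equal width (1546 bp), against 90.8% narrower over all 13855 genes open in both. The median width was 1339 bp in the aged list, against 1581.5 bp in the young list, and over all genes 1373 bp against 1674 bp. In number of regions, 27 genes had as many in the aged list as in the young list, 17 had fewer in the aged list and 7 had more. These counts too stand without those over all protein-coding genes. Psma3, with 5 aged and 3 young regions, and Psma6, with 7 and 6, were among those with more in the aged list.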

How the data were processed

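Per the submitters' processing notes, Bowtie2 was the aligner and mm10 (GRCm38) the genome. What was deposited is 1 narrowPeak list for each age. Each row gives the authors' fold ratio of a summit over background, the −log10 of its p-value and of its q-value, and a score, which in the deposited rows is 10 times the −log10 q-value cut to a whole number. Not given in the sources used here are the caller's version and options, read filters, any cut-site shift and the pooling of libraries. Rows that touch or overlap were merged, with the strongest summit kept (215838 aged rows into 117284 regions, 265507 young rows into 131656). Gene spans, starts and promoters came from RefSeq tables of GRCm38.p6, the build of the lists. The span table has no strand, so both ends counted as gene ends. The starts are those of the promoter table.

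An overlap of 1 bp with the other list was enough to count a region as shared. Intervals are exact Clopper-Pearson at 95%, and the floor of a count of 0 is 3 counts. The intervals cover counting error over genes or regions only, because each age has 1 list and libraries have no values of their own. Assignment and overlap were tested on simulated data. The members, lists, motifs and settings were chosen with earlier results of these data known. All members are accounted for by role, and those named with values are the catalytic, activator, inhibitor and ATPase genes, those not open in both lists, the 5 highest and 5 lowest by percentile in each list and the 5 with the most one-age regions. One gene of the antigen processing list and 1 immune marker are not reported here, and the counts leave them out. Other members given with values were chosen as examples after their values were seen. Analyses used Python 3.11.15, pandas 2.3.3 and scipy 1.17.1.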

Additional observations from a re-analysis of the deposited data

How the results depend on the processing

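Of 92 values recomputed under 9 alternative settings for 12 results, 74 stayed close to the reported value (within the range of the 3 genes, the 95% order-statistic interval of the median, the binomial interval, or 1.5 times a count) and 18 moved. The count of 48 genes open in both lists was 42 of 43 with annotated starts only, 46 without Psmc3ip, Psme3ip1 and Psme2b, 47 in equal number and 48 under the other 5 settings run for it. Genes open in neither list were 3, but 2 without those 3 symbols, and 1 with annotated starts only, Psme2b, since Psmf1 was then open and Psma8 had no start. With both lists reduced to their 58642 strongest regions, 1 gene, Psma6, was open in the aged list only, where its weak young region was no longer kept. Percentiles there are ranks among fewer, stronger regions, so the medians fell. The proteasome medians were 87.5 (aged) and 87.7 (young), the inducible medians 78.5 and 79.3, and the constitutive medians 76.6 and 79.2. Overlapped young regions then came to 91.4%. Shares over all genes under this and the other alternative settings are not given here. Without merging, each summit counts, and the proteasome medians were 95.8 and 96.3, the constitutive medians 91.3 and 93.1, and overlapped young regions 87.6%. With annotated starts only, which leaves out Psmb7, the inducible medians were below the constitutive ones (89.3 against 89.4 in the aged list, 90.8 against 91.5 in the young list). At a −log10 q of at least 5 the young constitutive median was 90.1. Overlapped aged regions were 100% at that threshold and with windows of 500 bp, where the Psmb11 region was dropped, and 79.3% with a reciprocal overlap of 50%; the cause of the last was not tested. No paired analysis was possible because each age has 1 list and no value per library, and no replicate could be left out for the same reason.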
